A study of Arachis hypogaea with 14 samples.

Results

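The miR166 family of peanut (Arachis hypogaea) seeds was described across 12 small RNA libraries, together with the HD-ZIP III transcripts listed for it in a degradome table. Members were all entries of the small RNA table whose name carries miR166 or MIR166 followed by no further digit, with 1 member per different sequence. There were 23 of them among 795 sequences, and no entry was named miR165. Seeds came from line 8107, which the labels call a super-pod variety, and line 8106, called a medium-pod variety, both recombinant inbred lines. Each line was taken at 35 and at 15 days after flowering (DAF), with 3 libraries in each of the 4 groups (8107 at 35 DAF, 8107 at 15 DAF, 8106 at 35 DAF and 8106 at 15 DAF), and no treatment is labelled. There is 1 line of each pod size, so pod size cannot be told apart from other differences between these lines. The labels name seed as the tissue and do not state whether each replicate was its own plant. The p-values therefore cover the spread among libraries, and part or all of that spread may be technical. A further 2 degradome libraries, 1 per line, pooled both stages.

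miR166 is one of the oldest land plant miRNA families. It is made from a hairpin whose 3p arm gives the mature miRNA and whose 5p arm gives the passenger strand, and the mature form pairs with the messages of class III homeodomain-leucine zipper (HD-ZIP III) transcription factors. In Arabidopsis these factors set the upper side of leaves and lateral organs, maintain the shoot meristem and pattern vascular tissue, and they also act in the embryo.

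Of the 23 members, 13 shared a stretch of 12 bases with mtr-miR166a and are called 3p here, and 10 carried 5p or p5 in their names. In these names mtr, mdm, gma, ptc and stu give the species of the matched miRNA, L and R give bases added or removed at the 5′ and 3′ end, and ss gives substitutions. The 3p forms below are shown because the results turn on them, with the seed (bases 2 to 8 from the 5′ end) in capitals.
mtr-miR166a: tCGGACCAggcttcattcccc
mtr-miR166a_1ss20CT: tCGGACCAggcttcattcctc
mtr-miR166b_2ss20TC21AT: tCGGACCAggcttcattccct
mtr-miR166a_L-1: cGGACCAGgcttcattcccc
mtr-miR166a_L+1R-1_1: cTCGGACCaggcttcattccc
mtr-miR166a_L+1R-1_2: gTCGGACCaggcttcattccc
mtr-miR166b_L+1_1ss22AC: cTCGGACCaggcttcattcctc
mdm-miR166a_L+2R-2: tCTCGGACcaggcttcattcc
mtr-miR166a_L+2: gGTCGGACcaggcttcattcccc

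Counted from 1 at the 5′ end, mtr-miR166a_1ss20CT differed from mtr-miR166a by C20T alone, and mtr-miR166b_2ss20TC21AT differed from it by C21T alone. Both changes lie outside the seed. The other forms began up to 2 bases earlier or 1 base later and so had other seeds. In all, 4 of the 13 3p members shared the seed of mtr-miR166a, 4 shared the seed moved by 1 base (the L+1 forms), 2 shared 1 moved by 2 bases, and 3 had a seed of their own. One of these 3, mtr-miR166a_1ss5AN, holds an uncalled base in its seed (A5N).

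The 5p forms are shown because they differed by a single base and yet had unlike levels. The capitals mark the seed in mtr-miR166g-5p and, in the other 4 GGAATG forms, the base that differs from mtr-miR166g-5p.
mtr-miR166g-5p: gGAATGTTgtctggctcgagg
mtr-miR166e-5p: ggaatgttgGctggctcgagg
mtr-miR166e-5p_2ss8TC10GT: ggaatgtCgtctggctcgagg
mtr-miR166e-5p_2ss10GT11CT: ggaatgttgtTtggctcgagg
mtr-miR166e-5p_2ss10GT21GA: ggaatgttgtctggctcgagA
ptc-MIR166n-p5_2ss16AG18GA: aATGAAGTttgatccgaaatc

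Relative to mtr-miR166g-5p these differences were T10G in mtr-miR166e-5p, T8C in mtr-miR166e-5p_2ss8TC10GT, C11T in mtr-miR166e-5p_2ss10GT11CT and G21A in mtr-miR166e-5p_2ss10GT21GA. The seed of mtr-miR166g-5p was shared by 6 of the 10 5p members, and the T8C form had a changed seed. The sequence of ptc-MIR166n-p5_2ss16AG18GA has the capitals on its seed and was unlike all the others. With 1 base between forms, how reads were divided among them rests on the authors' counting, a step the labels and headers do not describe.

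Levels are normalized reads as the authors deposited them. Library totals over all entries were 464658 to 1086382, and the values of each library fell on steps that put 580011 to 3243623 reads behind the listed entries. The totals were not equal, with a mean of 496115 ± 31523 in 8107 at 35 DAF and 1030016 ± 48900 in 8106 at 35 DAF (SD, n = 3 each), so differences of levels at 35 DAF can depend on how libraries are scaled. Differences are on the log2(value + 1) scale from limma, with Benjamini-Hochberg adjustment over all 395 entries that reached 10 in at least 3 libraries, and pass at an adjusted p under 0.05. Of the 23 members 20 were tested, and each of those 20 passed in at least 1 of 5 comparisons. The 3 that did not reach 10 often enough were the 5p forms ptc-MIR166g-p5, at most 6.04, mtr-MIR166g-p5_1ss8TC, at most 13.7, and stu-MIR166b-p5_1ss11TC, at most 9.04. They were listed at 0 in 6, 10 and 10 of the 12 libraries. A listed 0 can stand for a few reads, since in 11 libraries the smallest nonzero level was worth 6 reads.

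As a share of all normalized reads, which no factor applied to a whole library can change, the 23 members together made up more of the 8107 libraries than of the 8106 libraries at both stages. At 35 DAF they held 12.1, 12.8 and 12.3% in 8107, against 8.25, 9.85 and 7.48% in 8106. At 15 DAF they held 12.5, 13.9 and 13.7% in 8107, against 8.69, 9.86 and 9.06% in 8106. The lines did not overlap at either stage, while the stages overlapped within each line. A share also moves with every other entry of the library, and in bulk seed RNA fewer cells of a type cannot be told apart from less RNA per cell.

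The 5p arm was the minor one in every library, and its share of the family set the groups apart. It was 5.65, 6.84 and 5.49% of miR166 reads in 8107 at 35 DAF, and 5.03, 5.51 and 4.97% in 8107 at 15 DAF. In 8106 it was 2.00, 2.28 and 2.00% at 35 DAF, and 7.69, 8.87 and 7.85% at 15 DAF. The 8106 share was thus 0.257 times as large at 35 as at 15 DAF with no overlap, while the 8107 stages overlapped at a ratio of 1.16. Between the lines the 5p share of 8107 stood above that of 8106 at 35 DAF, at a ratio of 2.86, and below it at 15 DAF, at a ratio of 0.635, without overlap at either stage. The sums behind these shares were 3723 ± 801 and 4326 ± 569 normalized reads of 5p in 8107 at 35 and 15 DAF, against 1863 ± 505 and 5067 ± 630 in 8106 (SD, n = 3 each). The 3p sums were 57949 ± 4667 and 79232 ± 6685 in 8107 at 35 and 15 DAF, against 86320 ± 16232 and 57062 ± 2295 in 8106.

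**Figure D1:**
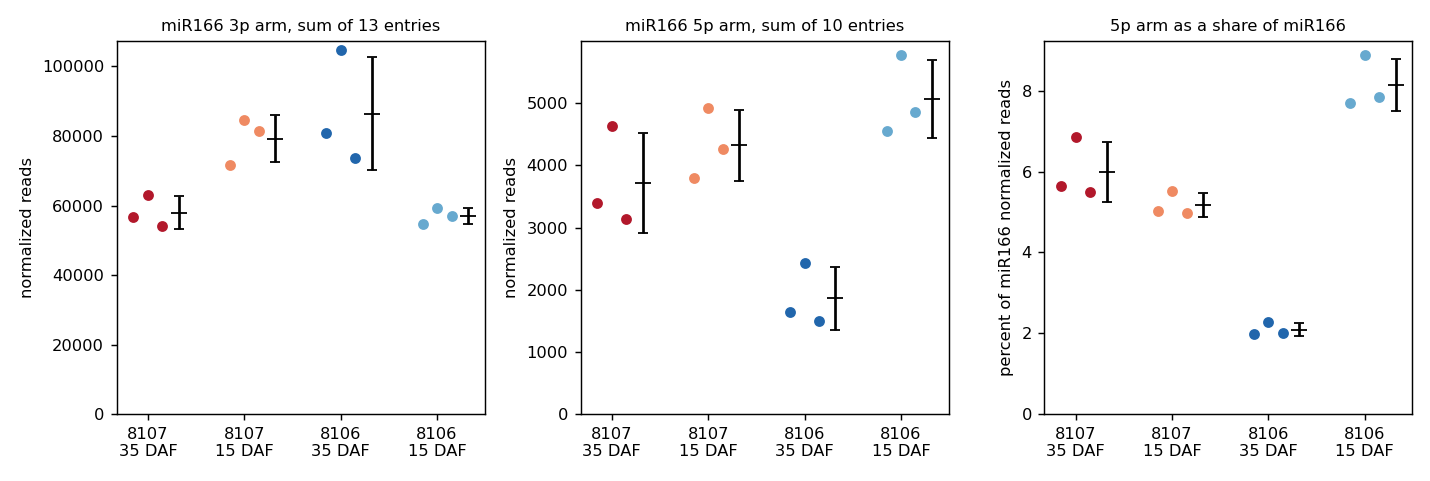
Normalized reads of the 3p arm (sum of 13 entries), of the 5p arm (sum of 10 entries) and the 5p arm as a percent of miR166 reads, for each of 12 libraries (points) with the group mean and SD (bars). The 5p share lies between 2.00 and 2.28% in 8106 at 35 DAF and between 4.97 and 8.87% in the other libraries.

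Among 3p forms mtr-miR166a was the most abundant in all 12 libraries, with 71.8 to 77.4% of 3p reads. Its level was 43854, 48236 and 41817 normalized reads in 8107 at 35 DAF, and 52742, 61968 and 60080 in 8107 at 15 DAF. It was 58724, 75073 and 53612 in 8106 at 35 DAF, and 40612, 43850 and 42658 in 8106 at 15 DAF. The lines changed places between the stages, 8107 being the higher line at 15 DAF and the lower one at 35 DAF in these units. At 15 DAF the log2 difference was 0.46 ± 0.14 (limma adjusted p = 0.0406), and it passed in 4 of the 12 fits that left out 1 library, those without 8107 at 35 DAF replicate 2, 8107 at 15 DAF replicate 1 or 8106 at 35 DAF replicate 2 or 3 (adjusted p up to 0.131 in the other 8). It was 0.57 with equal library totals (adjusted p = 0.0037), 0.21 with median centring (adjusted p = 0.507) and 0.35 with quantile normalization (adjusted p = 0.499). At 35 DAF it was -0.47 ± 0.14 in the deposited units (limma adjusted p = 0.0174) and -0.87 with median centring (adjusted p = 0.0068). In contrast it was 0.58 with equal library totals (adjusted p = 9.6e-04) and 0.63 with quantile normalization (adjusted p = 0.138). The direction at 35 DAF thus turned with the scaling.

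mtr-miR166a_1ss20CT, the C20T form, was the runner-up among 3p forms and fell out of step with mtr-miR166a in 8107 at 35 DAF. It had 6314, 7167 and 5650 normalized reads in 8107 at 35 DAF, and 12371, 14820 and 13692 in 8107 at 15 DAF. In 8106 it had 15499, 21131 and 13685 at 35 DAF, and 9957, 11257 and 10230 at 15 DAF. The 3 libraries of 8107 at 35 DAF were the lowest of the 12. Set against mtr-miR166a of the same library, a ratio that no factor applied to a whole library changes, it stood at 14.4, 14.9 and 13.5% in 8107 at 35 DAF, and at 23.5, 23.9 and 22.8% in 8107 at 15 DAF. In 8106 the ratio was 26.4, 28.1 and 25.5% at 35 DAF, and 24.5, 25.7 and 24.0% at 15 DAF. The 9 libraries outside 8107 at 35 DAF thus kept to 22.8 to 28.1%. In the fit its stage difference was -1.10 ± 0.16 in 8107 (limma adjusted p = 3.9e-04) and 0.66 ± 0.16 in 8106 (adjusted p = 8.7e-03), and the difference between these changes, -1.75 ± 0.23 (adjusted p = 1.9e-04), passed in every alternative run. Its line difference was -1.38 ± 0.16 at 35 DAF (limma adjusted p = 5.0e-05), against 0.38 ± 0.16 at 15 DAF (adjusted p = 0.128). With equal library totals the line difference at 35 DAF was -0.32 (adjusted p = 0.0569) and the stage difference in 8106 was 0.05 (adjusted p = 0.843).

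mdm-miR166a_L+2R-2, which starts 2 bases before mtr-miR166a, was higher at 35 than at 15 DAF in both lines. It had 3811, 4424 and 3881 normalized reads in 8107 at 35 DAF, and 2359, 2690 and 2945 in 8107 at 15 DAF. The 8106 libraries had 2439, 2808 and 2386 at 35 DAF, and 1073, 1120 and 1175 at 15 DAF. In the deposited units it was the only 3p member called higher in 8107 at both stages, by 0.67 ± 0.11 at 35 DAF (limma adjusted p = 6.4e-04) and 1.24 ± 0.11 at 15 DAF (adjusted p = 3.1e-05). Scaled to equal library totals, mtr-miR166a, both L+1R-1 forms, mtr-miR166a_R+2, mtr-miR166a_L-1 and mtr-miR166b_2ss20TC21AT were also called higher in 8107 at both stages. mdm-miR166a_L+2R-2 was the only 3p member that rose with stage in both lines, by 0.60 ± 0.11 in 8107 (limma adjusted p = 1.6e-03) and 1.18 ± 0.11 in 8106 (adjusted p = 1.3e-05). Its ratio to mtr-miR166a was 9.05 ± 0.31% and 4.57 ± 0.29% in 8107 at 35 and 15 DAF, against 4.11 ± 0.36% and 2.65 ± 0.10% in 8106 (SD, n = 3 each). The groups did not overlap in this ratio between lines at either stage, nor between stages in either line. The smaller difference of its stage changes, -0.57 ± 0.16 (limma adjusted p = 0.0151), passed in the other direction with equal library totals, at 0.36 (adjusted p = 0.0380). Its line difference at 35 DAF fell short with median centring, at 0.27 (limma adjusted p = 0.231).

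**Figure D2:**
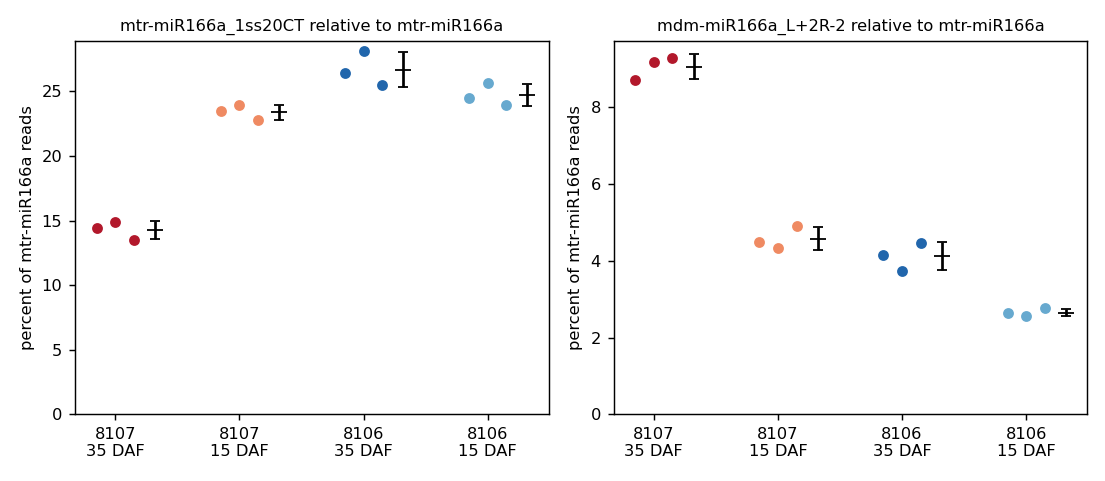
Normalized reads of mtr-miR166a_1ss20CT and of mdm-miR166a_L+2R-2 as a percent of mtr-miR166a in the same library, for each of 12 libraries (points) with the group mean and SD (bars). The first ratio is 13.5 to 14.9% in 8107 at 35 DAF and 22.8 to 28.1% elsewhere, and the second is highest in 8107 at 35 DAF, at 8.69 to 9.28%.

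The remaining named 3p forms were less abundant. mtr-miR166a_L-1, which lacks the first base, had 1437, 1976 and 1319 normalized reads in 8107 at 35 DAF and 2354, 3302 and 2784 in 8107 at 15 DAF. In 8106 it had 1795, 3288 and 1641 at 35 DAF and 1507, 1813 and 1631 at 15 DAF. It was lower at 35 DAF than at 15 DAF in 8107, by -0.84 ± 0.26 (limma adjusted p = 0.0227), a call lost with equal library totals, with median centring and without 8107 at 35 DAF replicate 1 or 3 or 8107 at 15 DAF replicate 2 or 3. Its other line and stage differences did not pass in the fit without a block. The pair mtr-miR166a_L+1R-1_1 and mtr-miR166a_L+1R-1_2 differ in their first base and yet had identical values in all 12 libraries, so they cannot be told apart as separate molecules. Each had 307, 268 and 281 in 8107 at 35 DAF and 369, 318 and 392 in 8107 at 15 DAF. In 8106 each had 474, 461 and 438 at 35 DAF and 260, 218 and 236 at 15 DAF. Both passed in all 5 comparisons. The line difference at 15 DAF, 0.59 ± 0.12 (limma adjusted p = 0.0055), was lost with median centring, at 0.35 (adjusted p = 0.120). It was also lost with quantile normalization, at 0.35 (adjusted p = 0.130). The difference of the stage changes, -1.27, was lost with equal library totals, at -0.34 (limma adjusted p = 0.145). The stage change in 8106 was 0.94 ± 0.12 (limma adjusted p = 9.5e-05), and 0.34 with equal library totals (adjusted p = 0.0591). At 35 DAF 8107 was lower by -0.68 ± 0.12 (limma adjusted p = 7.1e-04), but the difference was 0.37 with equal library totals. Their stage change in 8107 was the smallest of the 5, at -0.33 ± 0.12 (limma adjusted p = 0.041), and was 0.0019 with equal library totals. It was also lost without 8107 at 35 DAF replicate 2 or 3, 8107 at 15 DAF replicate 1 or 3, 8106 at 35 DAF replicate 1 or 8106 at 15 DAF replicate 3.

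mtr-miR166b_L+1_1ss22AC had 118, 132 and 138 normalized reads in 8107 at 35 DAF and 216, 188 and 233 in 8107 at 15 DAF. The 8106 libraries had 265, 319 and 310 at 35 DAF and 223, 175 and 178 at 15 DAF. Its line difference at 35 DAF was -1.20 ± 0.14 (limma adjusted p = 5.6e-05), and -0.15 with equal library totals (adjusted p = 0.426). mtr-miR166a_L+2, chosen here after its values were seen, had 8.95, 8.06 and 10.4 in 8107 at 35 DAF and 117, 56.2 and 107 in 8107 at 15 DAF. In 8106 it had 113, 39.5 and 176 at 35 DAF and 142, 55.1 and 95.7 at 15 DAF. The 3 libraries of 8107 at 35 DAF, with 12 to 18 estimated reads each, lay below all others, and the line difference there was -3.21 ± 0.53 (limma adjusted p = 5.7e-04) and passed in every alternative run. In those 3 libraries gma-miR166p_L+2R+1, which differs from mtr-miR166a_L+2 in its first base, had identical values. The 2 forms therefore cannot be told apart there, though their values differed in the other groups. The other 5 3p members, gma-miR166p_L+2R+1 among them, had means over the 12 libraries of 20.5 to 332 normalized reads.

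The 5p arm held the largest difference of the family. mtr-miR166e-5p_2ss10GT11CT, the C11T form, had 945, 1294 and 889 normalized reads in 8107 at 35 DAF and 174, 217 and 193 in 8107 at 15 DAF. The 8106 libraries had 5.25, 8.04 and 5.42 at 35 DAF, from an estimated 13, 24 and 8 reads, and 34.4, 50.2 and 36.5 at 15 DAF. All 4 groups were apart without overlap. The line difference was 7.17 ± 0.22 at 35 DAF (limma adjusted p = 3.4e-09) and 2.26 ± 0.22 at 15 DAF (adjusted p = 5.9e-05). With stage the form rose in 8107, by 2.40 ± 0.22 (limma adjusted p = 1.4e-05), and fell in 8106, by -2.52 ± 0.22 (adjusted p = 8.6e-06). The difference between those changes was 4.92 ± 0.31 (limma adjusted p = 1.1e-06). These 5 calls held in every alternative run, scalings and left-out libraries included. Within the 5p arm the form made up 27.8, 27.9 and 28.4% in 8107 at 35 DAF and 4.58, 4.41 and 4.54% in 8107 at 15 DAF. In 8106 it made up 0.319, 0.329 and 0.361% at 35 DAF and 0.754, 0.870 and 0.750% at 15 DAF.

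Its close relative mtr-miR166g-5p, the most abundant 5p form, differs by that 1 base and varied far less. It had 1473, 1989 and 1363 normalized reads in 8107 at 35 DAF and 1174, 1610 and 1311 in 8107 at 15 DAF. In 8106 it had 944, 1425 and 829 at 35 DAF and 1779, 2334 and 1924 at 15 DAF. It fell with stage in 8106 by -0.95 ± 0.22 (limma adjusted p = 6.9e-03), against 0.23 ± 0.22 in 8107 (adjusted p = 0.440), and the difference of these changes was 1.18 ± 0.32 (adjusted p = 0.0134). With median centring the fall in 8106 was -0.74 (adjusted p = 0.0867) and the difference of the changes 1.02 (adjusted p = 0.0817). Between the lines at 35 DAF it was higher in 8107 by 0.61 ± 0.22 (limma adjusted p = 0.0411), with overlapping libraries. That call passed in 5 of the 12 fits that left out 1 library, those without 8107 at 35 DAF replicate 3, 8107 at 15 DAF replicate 1 or 2, 8106 at 35 DAF replicate 2 or 8106 at 15 DAF replicate 2, and was 0.21 with median centring (adjusted p = 0.585).

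A pair of 5p forms fell with stage in both lines. mtr-miR166e-5p, the T10G form, had 384, 481 and 339 normalized reads in 8107 at 35 DAF and 989, 1270 and 1088 in 8107 at 15 DAF. The 8106 libraries had 273, 396 and 254 at 35 DAF and 1249, 1523 and 1279 at 15 DAF. Its stage difference was -1.48 ± 0.19 in 8107 (limma adjusted p = 1.6e-04) and -2.15 ± 0.19 in 8106 (adjusted p = 8.7e-06). mtr-miR166e-5p_2ss8TC10GT, the T8C form, had 240, 349 and 236 in 8107 at 35 DAF and 1055, 1299 and 1236 in 8107 at 15 DAF. In 8106 it had 179, 204 and 216 at 35 DAF and 987, 1205 and 1092 at 15 DAF. Its stage difference was -2.14 ± 0.17 in 8107 (limma adjusted p = 4.7e-06) and -2.45 ± 0.17 in 8106 (adjusted p = 1.5e-06). The stages of both forms were apart in each line and the calls held in every alternative, while the difference of the lines' stage changes did not pass for mtr-miR166e-5p (0.67 ± 0.27, limma adjusted p = 0.0731) or for the T8C form (0.31 ± 0.24, adjusted p = 0.311). That of mtr-miR166e-5p passed with the replicate number as a block (limma adjusted p = 0.0035), and with equal library totals both passed, at 1.61 for mtr-miR166e-5p (adjusted p = 2.3e-04) and 1.24 for the T8C form (adjusted p = 6.4e-04).

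Of the other tested 5p forms, mtr-miR166e-5p_2ss10GT21GA averaged 363 ± 109 and 435 ± 60.8 normalized reads in 8107 at 35 and 15 DAF, against 271 ± 99.7 and 553 ± 75.4 in 8106 (SD, n = 3 each), and passed for the fall with stage in 8106 (-1.08, limma adjusted p = 0.0087), a call lost with median centring (-0.87, adjusted p = 0.0767). It also passed with equal library totals between the lines at 35 DAF, at 1.49 (limma adjusted p = 2.6e-04), and for the difference of stage changes, at 1.72 (adjusted p = 0.0018). ptc-MIR166n-p5_2ss16AG18GA, chosen here after its values were seen, had 22.4, 15.2 and 19.2 in 8107 at 35 DAF, and 3.32, 0 and 2.42 in 8107 at 15 DAF. In 8106 it had 3.23, 0 and 0 at 35 DAF and 0 in all 3 libraries at 15 DAF. It passed between the lines at 35 DAF and between the stages in 8107. mtr-miR166g-5p_1ss16TC reached at most 22.2 and passed, in the fit without a block, for the stage change in 8106 alone (limma adjusted p = 0.0444), a call lost in 11 of the 12 fits that leave out 1 library.

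**Figure D3:**
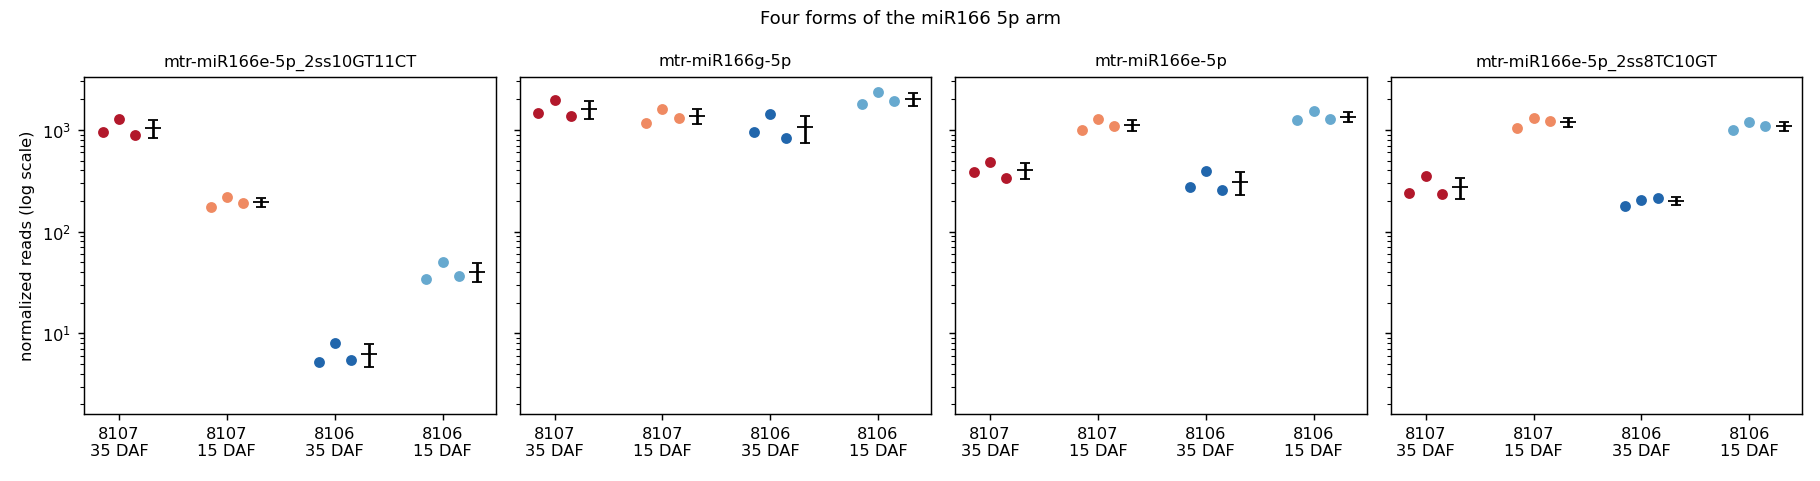
Normalized reads on a log axis of 4 forms of the 5p arm in each of 12 libraries (points) with the group mean and SD (bars). mtr-miR166e-5p_2ss10GT11CT ranges from 5.25 in 8106 at 35 DAF to 1294 in 8107 at 35 DAF, while mtr-miR166g-5p stays between 829 and 2334.

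Counted together at 35 DAF, 14 of the 20 tested members differed between 8107 and 8106, 5 higher and 9 lower in 8107. Of all 395 entries 52.4% passed, 32.2% higher and 20.3% lower. The arms went opposite ways in the deposited units, with 1 of 13 3p members higher and 9 lower, and 4 of 7 5p members higher and 0 lower. Of these 4, mtr-miR166e-5p_2ss8TC10GT was at 0.44 (limma adjusted p = 0.0472), a call lost in 10 of the 12 fits that left out 1 library. That of mtr-miR166g-5p was lost in 7, and ptc-MIR166n-p5_2ss16AG18GA entered the test only through 8107 at 35 DAF. With median centring and with quantile normalization 2 of the 7 5p members were higher. The split of the 20 tested members turned to 15 higher and 1 lower with equal library totals, a scaling under which the median entry stood at 1.01 instead of 0.03. With quantile normalization 3 were higher and 11 lower, and median centring gave 2 higher and 12 lower. Equal totals and median centring apply a factor to a whole library, so they could hardly change the order of the arms relative to the median entry. Quantile normalization could change that order, and with it the order did not turn. The 3p median minus that of all entries was -0.71 as deposited, -0.64 with equal totals and -0.83 with quantile normalization. For the 5p median it was 0.58 as deposited, 0.66 with equal totals and 0.53 with quantile normalization.

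At 15 DAF 7 of the 20 tested members differed between the lines, all 7 higher in 8107, where 22.5% of all entries passed, 15.7% higher and 6.84% lower. They were 6 3p forms, led by mdm-miR166a_L+2R-2, and the C11T form of the 5p arm. With the replicate number as a block, which pairs libraries in this comparison, 11 members passed. The 4 added were mtr-miR166a_1ss20CT (limma adjusted p = 0.0210), mtr-miR166a_1ss5AN (0.0248) and mtr-miR166a_L-1 (0.0047), all 3 higher in 8107, and mtr-miR166g-5p (0.0032), lower in 8107. The count was 4 without 8107 at 15 DAF replicate 3 or 8106 at 15 DAF replicate 1 or 3, and 11 without 8106 at 35 DAF replicate 2, and with median centring it was 2. Quantile normalization gave 3 higher and 1 lower, and equal library totals 10 higher and 0 lower. The 3p median difference was 0.45 and the 5p median -0.28, beside -0.09 for all entries.

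With stage in 8107, 15 of the 20 tested members differed, 3 higher and 12 lower at 35 DAF, where 46.3% of all entries passed, 23.0% higher and 23.3% lower. The 3 higher include ptc-MIR166n-p5_2ss16AG18GA, which entered the test only through 8107 at 35 DAF. The 12 lower include mtr-miR166a, whose call was lost in 8 of the 12 fits that left out 1 library (limma adjusted p up to 0.134). With quantile normalization mtr-miR166a was at 0.45 (adjusted p = 0.298). Of the 3p members 10 were lower and 1 was higher, with a median of -0.43 beside 0.06 for all entries. With equal library totals the split was 4 higher and 5 lower. In 8106, 16 members differed with stage, 10 higher and 6 lower at 35 DAF, where 36.2% of all entries passed, 13.2% higher and 23.0% lower. There the 10 higher were all 3p and the 6 lower all 5p, with medians of 0.66 and -2.14 beside -0.24 for all entries. With equal library totals 1 was higher and 7 lower, which left 1 of the 10 higher 3p calls, and with median centring the split was 10 and 3. The 2 stage comparisons share no library with each other, but each shares a group with a comparison of the lines.

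The difference of the stage changes, 8107 minus 8106, passed for 14 of the 20 tested members, 2 positive and 12 negative, where 41.0% of all entries passed, 22.3% positive and 18.7% negative. All 12 negative were 3p forms and both positive ones were 5p forms, mtr-miR166e-5p_2ss10GT11CT and mtr-miR166g-5p. With the replicate number as a block 4 further 5p forms passed as positive, mtr-miR166e-5p (limma adjusted p = 0.0035), mtr-miR166e-5p_2ss10GT21GA (0.0085), mtr-miR166g-5p_1ss16TC (0.0253) and ptc-MIR166n-p5_2ss16AG18GA (0.0469). The last of these entered the test only through its values in 8107 at 35 DAF. The 3p median was -1.27, which is the value of the identical L+1R-1 pair, and the 5p median 1.18, beside 0.52 for all entries. The split became 8 positive and 3 negative with equal library totals, under which the median entry stood at 1.32. Quantile normalization gave 3 positive and 11 negative, and median centring 1 positive and 12 negative. All 13 3p members lay below the median entry as deposited, and 12 did with quantile normalization. Equal totals and median centring apply a factor to a whole library and could hardly change this count.

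**Figure D4:**
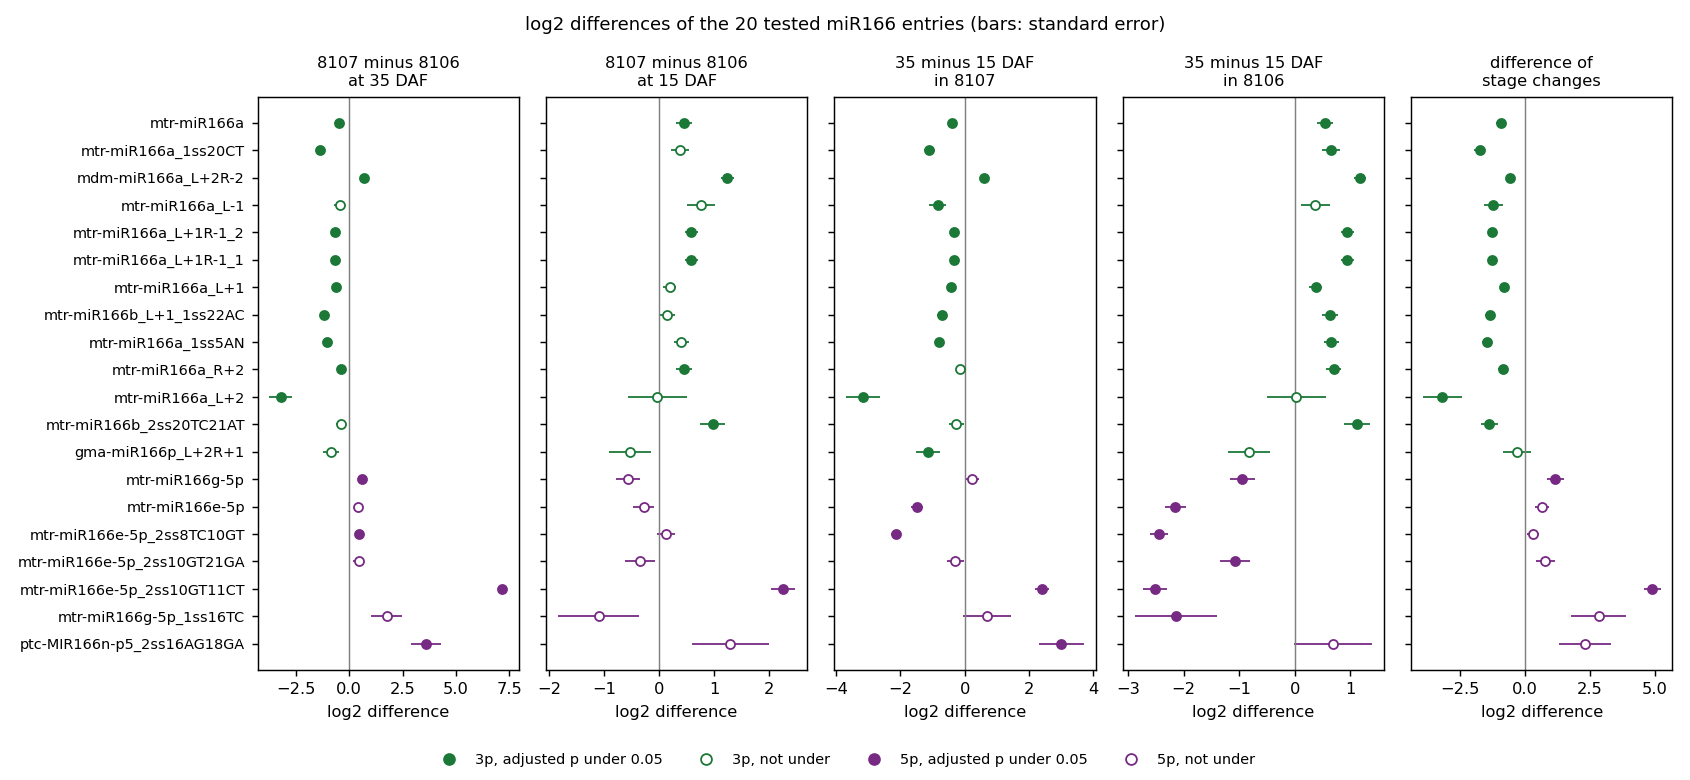
log2 differences on the log2(value + 1) scale (points) with SE (bars) of the 20 tested miR166 entries in 5 comparisons, filled where the limma adjusted p was under 0.05; the horizontal scale differs between panels. 3p forms are mostly left of 0 at 35 DAF between the lines, with 9 of 13 lower, and right of 0 with stage in 8106, with 10 of 13 higher; with equal library totals these became 8 higher and 1 lower, and 1 higher and 1 lower.

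The entries of other families most like mtr-miR166a over the 12 libraries, by the root mean square difference of log2(value + 1) after centring each entry on its mean, were gma-miR171n at 0.19, 3 entries of gma-miR1511_R+1 with identical values at 0.21, and ahy-miR394_L+1_2 at 0.22. Within the family the closest was mtr-miR166a_R+2 at 0.17, and mtr-miR166e-5p_2ss10GT11CT was the farthest at 2.78. miR171 is a family that targets GRAS transcription factors.

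Families that act beside miR166 in organ polarity, meristems and organ growth were counted for background. They are miR390, the trigger of tasiRNAs that act on auxin response factors, miR394, which targets an F-box gene of the stem cell niche, miR319 of TCP genes, miR396 of growth-regulating factors and miR164 of NAC genes. Of their 45 entries 29 were tested. At 35 DAF 14 were higher and 10 lower in 8107, where 52.4% of all entries passed, and at 15 DAF 8 were higher and 0 lower, where 22.5% passed. With stage 5 were higher and 11 lower in 8107, where 46.3% of all entries passed, and 3 higher and 7 lower in 8106, where 36.2% passed. These splits also moved with the scaling. With equal library totals 17 were higher and 5 lower at 35 DAF, with stage 7 and 7 in 8107 and 1 and 10 in 8106, and quantile normalization gave 10 and 10 at 35 DAF and 5 and 5 with stage in 8106. At 15 DAF median centring gave 4 higher and 1 lower. mtr-miR390 averaged 589 ± 110 and 840 ± 98.8 normalized reads in 8107 at 35 and 15 DAF, against 76.9 ± 18.9 and 485 ± 54.8 in 8106 (SD, n = 3 each). mtr-miR164a averaged 1124 ± 216 and 8327 ± 1609 in 8107, against 5671 ± 1413 and 8137 ± 985 in 8106. lja-miR396 averaged 2068 ± 218 and 738 ± 48.6 in 8107, against 306 ± 86.8 and 359 ± 21.4 in 8106. mtr-miR319a-3p_L+1_1ss21CT averaged 2854 ± 788 and 2858 ± 335 in 8107, against 3542 ± 1540 and 1225 ± 237 in 8106. ahy-miR394 averaged 1194 ± 531 and 1232 ± 402 in 8107, against 497 ± 285 and 598 ± 200 in 8106.

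Degradome sequencing reads the 5′ ends of cut transcripts. The deposited table lists a small RNA, a transcript, an alignment score (a lower score is a closer match) and a cleavage site, with no abundance and no library, so no pair can be assigned to a line or stage. It held 101 different pairs of a miR166 member, a transcript and a site among 2497 in all. Of the 23 members 13 had a pair, 10 of the 3p and 3 of the 5p arm. HD-ZIP III symbols made up 87 of the 101 pairs, on 13 transcripts, and all 87 came from 3p members. They were 6 transcripts of REV, which acts in meristems and organ polarity in Arabidopsis, 3 of ATHB-8, which acts in vascular tissue, 2 of ATHB-14 (PHABULOSA), which sets the upper side of leaves, and 2 of ATHB-15 (CORONA), which acts in meristems and vasculature. No miR166 pair carried the symbol ATHB-9. Pairs were listed 1 or 2 times, and 83 of the 87 were listed 2 times, that is 95.4%, where 45.4% of the pairs in the whole table were. The 87 pairs are not independent, since 10 overlapping 3p forms were listed for the same 13 transcripts at the same or neighbouring sites. The 95.4% therefore counts the same sites several times.

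The closest scores with HD-ZIP III transcripts, 2.5, were those of mtr-miR166a, mtr-miR166a_1ss20CT and mtr-miR166b_2ss20TC21AT on both ATHB-15 transcripts and those of mtr-miR166a_L-1 on ATHB-14 and REV. Scores of 2.5 or lower made up 16.1% of the HD-ZIP III pairs, and 21.8% of all degradome listings with repeats counted. mtr-miR166a, mtr-miR166a_1ss20CT and mtr-miR166b_2ss20TC21AT scored 3 on the other 11 transcripts. The pair mtr-miR166a_L+1R-1_1 and mtr-miR166a_L+1R-1_2 reached all 13 transcripts at 3 to 3.5. mtr-miR166a_L+1, mtr-miR166b_L+1_1ss22AC and mdm-miR166a_L+2R-2 were listed for both ATHB-15 transcripts alone, at 4. mtr-miR166a_1ss5AN was listed for ATHB-14 and REV at 3. The 3p forms mtr-miR166a_R+2, mtr-miR166a_L+2 and gma-miR166p_L+2R+1 had no pair.

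**Figure D5:**
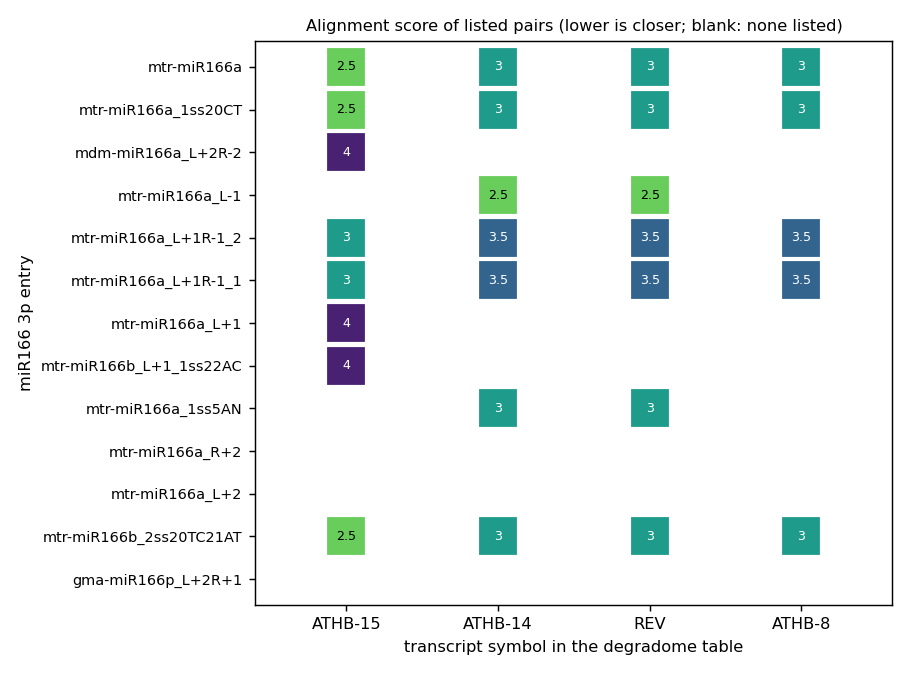
Alignment scores (numbers and colour, a lower score being a closer match) of the 13 3p entries (rows) with transcripts of 4 HD-ZIP III symbols (columns) in the degradome table, blank where none is listed. ATHB-15 has pairs with 8 entries and ATHB-8 with 5.

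The listed sites of different forms on 1 transcript were within 3 neighbouring bases. On each ATHB-15 transcript they were 559, 560 and 561, on each ATHB-14 transcript 579 to 581 and on the ATHB-8 transcripts 583 and 584, in the transcript coordinates of the table. Counted from the 5′ end of the small RNA, the cut lay opposite base 10 in 79 of the 87 HD-ZIP III pairs and opposite base 11 in the other 8, those of mtr-miR166a_1ss5AN. Base 10 was also the place in 79.6% of all pairs of the table. Apart from mtr-miR166a_1ss5AN, the listed site moved with the end of each form's own alignment. On ATHB-14 the alignments of mtr-miR166a_L-1, mtr-miR166a and the L+1R-1 forms ended at 588, 589 and 590, with sites at 579, 580 and 581. Neighbouring sites thus cannot be read as separate cuts, nor base 10 as a result of its own for each form.

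Outside HD-ZIP III, mtr-miR166a was listed for 3 transcripts with the symbol At5g16150, which in Arabidopsis is a glucose transporter of plastids, each at a score of 4 and listed 1 time. Among 5p members mtr-MIR166g-p5_1ss8TC had 9 pairs, 3 with DPEP at 2.5 and the others with DNAJB1 and transcripts without a symbol at 4, ptc-MIR166g-p5 had 1 with IQD1, and mtr-miR166e-5p_2ss10GT11CT had 1 with a transcript without a symbol, at 4. These 11 pairs were listed 1 time each. Other small RNAs had 4 pairs with HD-ZIP III symbols, 3 of the predicted PC-3p-135887_49 with ATHB-14 at 3.5 to 4 and 1 of gma-MIR5368-p3 with ATHB-15 at 4, all at other sites than the miR166 members.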

How the data were processed

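Small RNAs were prepared with a TruSeq kit and read for 50 bases, with a gel fraction of 22 to 30 nt, per the labels' protocols; 16 of the 23 members are 21 nt long, and any effect was not tested. The authors deposited a signal per library as normalized reads, per the file headers, and degradome pairs with an alignment score, per the file headers; the normalization, aligner settings and annotation are not given in the sources used here. Bowtie is named in the submitters' processing notes. Within a library 98.2 to 99.4% of values were whole multiples of 1 step within 0.02 steps; intervals from counts were not computed.

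Lines of the table with the same sequence were merged. limma 3.58.1 (R 4.3.3, trend, 4 group means, 12 libraries) was fitted to log2(value + 1) of 395 of 795 entries, those at 10 or more in at least 3 libraries, with Benjamini-Hochberg adjustment over all 395. Differences are ± SE. This scale understates changes of low entries. Sums, shares and ratios are descriptions with no test. Members with every library's value are the 6 most abundant, the highest of each arm and the 3 smallest p per comparison; others are named as chosen after their values were seen. The members and lists were chosen with earlier results of these data known. Replicate numbers come from the labels; same-numbered libraries deviated together in every pair (correlation 0.12 to 0.68) in 3 comparisons, and at 0.04 to 0.66 between the lines at 35 DAF, where they are not taken as pairs. Alternatives were other pseudocounts, filters, scalings, weights, a block and left-out libraries. The method was tested on simulated data. Symbols are those of the degradome table.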

Additional observations from a re-analysis of the deposited data

Results flagged for a closer look

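The lines' stage changes differed, by the limma test of the difference itself (8107 minus 8106, adjusted over all 395 entries), for 14 members. Both positive values were of 5p forms. They were 4.92 for mtr-miR166e-5p_2ss10GT11CT, which was higher at 35 than at 15 DAF in 8107 and lower in 8106, and 1.18 for mtr-miR166g-5p. The negative values were of 3p forms, with -0.93 for mtr-miR166a, -1.75 for mtr-miR166a_1ss20CT, -1.27 for both mtr-miR166a_L+1R-1_1 and mtr-miR166a_L+1R-1_2, -1.45 for mtr-miR166a_1ss5AN and -1.34 for mtr-miR166b_L+1_1ss22AC. Further negative values were -0.81 for mtr-miR166a_L+1, -0.85 for mtr-miR166a_R+2, -3.18 for mtr-miR166a_L+2, -1.38 for mtr-miR166b_2ss20TC21AT, -0.57 for mdm-miR166a_L+2R-2 and -1.22 for mtr-miR166a_L-1. Library totals moved with these groups, with 1.52 times as many normalized reads at 35 as at 15 DAF in 8106 and 0.796 times as many in 8107, and the part of the totals in the differences was not tested beyond the scalings given here.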

How the results depend on the processing

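Of the 66 calls of members, 21 held in every alternative run, 29 were lost in at least 1 without a change of direction and 16 changed direction in at least 1, and the cause was not tested. With equal library totals the log2 difference between the lines at 35 DAF became 0.58 for mtr-miR166a, 0.0053 for mtr-miR166a_1ss5AN, 0.44 for mtr-miR166a_L+1, 0.37 for both L+1R-1 forms, 0.60 for mtr-miR166a_L-1, 0.66 for mtr-miR166a_R+2 and 0.64 for mtr-miR166b_2ss20TC21AT. Of these, mtr-miR166a_L-1 and mtr-miR166b_2ss20TC21AT were not called in the deposited units, passed here as higher in 8107, and passed as lower with quantile normalization and with median centring. The stage change became -0.061 for mtr-miR166a and -0.22 for mtr-miR166a_L+1 in 8106 and 0.0019 for both L+1R-1 forms in 8107. The difference of stage changes became 0.36 for mdm-miR166a_L+2R-2, which passed in this direction (limma adjusted p = 0.0380). It became 0.0090 for mtr-miR166a, 0.13 for mtr-miR166a_L+1 and 0.087 for mtr-miR166a_R+2. With quantile normalization mtr-miR166a was at 0.63 at 35 DAF, 0.45 for the stage change in 8107 and 0.28 for the difference of stage changes, and mtr-miR166e-5p_2ss8TC10GT was at -0.19 at 35 DAF.

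The 7 members called at 15 DAF became 2 with median centring, 4 with quantile normalization, 11 with the replicate block and 13 with sample quality weights. With equal library totals the stage calls were 8 in 8106 and 9 in 8107. Leaving out 1 library gave 4 to 11 calls at 15 DAF, 11 to 16 at 35 DAF, 14 to 16 with stage in 8106, 10 to 15 with stage in 8107 and 13 to 17 for the difference of stage changes. With the replicate block 18 members were called at 35 DAF and 18 for the difference of stage changes, and the block changed no call with stage. At scores of 2.5 or lower 17 degradome pairs were left, 14 of them HD-ZIP III. Those 14 were 16.1% of the HD-ZIP III pairs, where 21.8% of all degradome listings, repeats counted, scored as low. Counting the identical L+1R-1 pair once, chosen after seeing the data, moved no share by as much as its SD. Member counts and arm medians take this pair as 2 members. The 3p medians of the line difference at 35 DAF and of the difference of stage changes are the pair's own values. A fit with 1 row per set of identical values changed no member call. The edgeR alternative on recovered reads was not run, since the values were not accepted as whole reads. Depth limits the low 5p forms, where 1 library at 0 may hold a few reads.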
